A study of Mus musculus with 40 samples.

Results

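Serpins are a family of proteins that share 1 fold, most of which block proteases by offering an exposed loop that the protease cleaves and on which it is then trapped. The members were the genes whose symbols begin with Serpin followed by a clade letter from a to i and a number. They came to 62 of the 21448 gene symbols measured, and 25 of the 62 were detected, with at least 100 reads in 4 or more libraries on the most counted probe of the gene. Clade A held 24 members with 15 detected, and clade B held 27 members with 3 detected. The single members of clades C, D, G and H and both members of clade F were detected, as was 1 of the 3 members of clade E, while neither member of clade I was detected.

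The liver makes most of the serpins of blood plasma, and hepatocytes secrete them together with clotting and complement proteins. Clade A includes alpha-1-antitrypsin, the main inhibitor of neutrophil elastase, and carriers of hormones that no longer inhibit a protease. Clades C, D, F and G include inhibitors of thrombin, plasmin and the first complement proteases, whereas clade B members lack a classical secretion signal and act largely inside cells. In mice, the genes for alpha-1-antitrypsin and for the antichymotrypsin-like serpins have multiplied into neighboring paralogs.

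GenX is the ammonium salt of a perfluorinated ether acid used in making fluoropolymers. Wildtype male and female mice of the outbred Crl:CD1(ICR) stock were given GenX in deionized water by oral gavage for 90 days at 5, 0.5 or 0.1 mg/kg of body weight, and control mice of both sexes received deionized water alone. Each of the 8 groups held 5 mice, numbered from 01 to 05 for males and from 51 to 55 for females within each dose. Livers were fixed in formalin, embedded in paraffin and measured as bulk tissue with TempO-Seq, in which adjoining DNA probes on a target RNA are ligated, amplified and counted. The library of mouse 355, a female at 0.5 mg/kg, was left out for low depth, so that group held 4 mice and 39 libraries were compared.

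The 39 libraries held 10341341 to 15562253 reads. Counts gathered at multiples of 20.8 to 49.8 reads, taken here as what 1 captured molecule gave, so 100 reads stand for only a few molecules and sampling error is larger than the read counts alone would give. The estimated number of molecules was 287241 to 369995 in control males and 483009 to 656745 in males at 5 mg/kg, and 307765 to 521441 and 306231 to 339820 in the matching females. Reads for the Y-linked gene Ddx3y were present in all 20 males and in 0 of the 20 females. The summed level of Ehhadh, Cyp4a10 and Cyp4a14, targets of the lipid sensor PPARα, was 143 to 378 CPM (reads scaled to the total of the library) in control males and 11674 to 17939 CPM in males at 5 mg/kg, and the 6 hepatocyte markers were above 0 in every group. Their sum was 11282 to 14509 CPM in control males and 8845 to 10284 CPM in males at 5 mg/kg, and 13693 to 16497 and 10440 to 12844 CPM in the matching females, and its part in the serpin changes was not tested. Most of the difference in males was in Ass1, with means of 5514 and 2466 CPM, while Alb was 3285 and 3421 CPM and Ttr 3546 and 3475 CPM. Male means of Apob (544 and 389 CPM), Cps1 (62.1 and 29.9 CPM) and Tat (24.6 and 16.4 CPM) were also lower. In females the means were 6240 and 3430 CPM for Ass1, 4555 and 4113 CPM for Alb and 3634 and 3556 CPM for Ttr. Apob was 413 and 367 CPM, Cps1 80.1 and 41.6 CPM and Tat 37.4 and 18.2 CPM in these females. In bulk tissue, fewer cells of a type and less RNA per cell cannot be told apart.

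The 4 measured alpha-1-antitrypsin genes, Serpina1a, Serpina1b, Serpina1d and Serpina1e, lie in 1 cluster on chromosome 12 and fell together at 5 mg/kg. The 170 bases from 120 before to 50 after their RefSeq transcription starts are shown because the 4 promoters are near copies of each other. The promoter of Serpina7, which rose, is shown with them. GENCODE gene models can start elsewhere. That of Serpina1a, on the minus strand, starts at base 103863562 of chromosome 12, outside its window given below. Sequences are from RefSeq on GRCm38.p6, all lie on the minus strand, and capitals mark the letters GTTAAT, a half-site of the hepatocyte factor HNF1. The windows are chr12:103863570-103863739, chr12:103738140-103738309, chr12:103773584-103773753, chr12:103956848-103957017 and chrX:139085187-139085356 in the order printed.
Serpina1a: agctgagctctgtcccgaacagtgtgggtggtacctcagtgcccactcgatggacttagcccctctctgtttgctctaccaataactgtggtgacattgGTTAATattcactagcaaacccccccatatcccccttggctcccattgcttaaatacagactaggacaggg
Serpina1b: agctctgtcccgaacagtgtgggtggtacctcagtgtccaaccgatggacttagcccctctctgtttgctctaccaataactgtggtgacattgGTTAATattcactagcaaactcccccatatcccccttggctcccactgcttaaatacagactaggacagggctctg
Serpina1d: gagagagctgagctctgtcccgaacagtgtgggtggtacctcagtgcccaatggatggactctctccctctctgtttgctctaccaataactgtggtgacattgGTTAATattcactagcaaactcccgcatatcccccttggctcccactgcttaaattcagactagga
Serpina1e: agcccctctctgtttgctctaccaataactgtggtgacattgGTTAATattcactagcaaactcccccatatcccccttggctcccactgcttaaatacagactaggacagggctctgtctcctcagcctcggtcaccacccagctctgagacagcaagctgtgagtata
Serpina7: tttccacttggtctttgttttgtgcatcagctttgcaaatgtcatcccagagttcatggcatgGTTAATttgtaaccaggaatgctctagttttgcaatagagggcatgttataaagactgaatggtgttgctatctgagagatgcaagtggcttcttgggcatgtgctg
Over the full windows of 300 bases, the 6 pairs among the 4 Serpina1 promoters aligned over 238 to 295 bases with 92.9% to 98.4% identity. Promoters of 17 of the 25 detected serpins were matched in the RefSeq table used here. GTTAAT, searched on both strands, was found in 6 of these 17, namely the 4 Serpina1 genes, Serpina7 and Serpinb8, and in 7.10% of all 32851 promoters of that length. TTGCNNAA, a pattern bound by C/EBP factors, was found in 7 of the 17 and in 10.8% of all promoters. The 7 were the 4 Serpina1 genes, Serpina3f, Serpina7 and Serpinc1. Because the 4 Serpina1 promoters are near copies, they do not count as 4 independent promoters for either pattern. The TTGCNNAA match was not at the same site in all 4. In Serpina1a it lay at 24 from the start, with GTTAAT at -21. In Serpina1b, Serpina1d and Serpina1e it lay at -161, -149 and -211, with GTTAAT at -26, -16 and -78. AGGTCA, a half-site of nuclear receptors, was found in 4 of the 17 and 16.3% of all. The DR1 repeat that PPARα binds with its partner was in 0 of the 17 and in 0.38% of all promoters. TTCNNNGAA, a STAT pattern, was in 4 of the 17 and 8.30% of all. AGGTCA can lie within a DR1 repeat.

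At 5 mg/kg, 13 of the 25 detected serpins were lower and 2 were higher in males than in control males, at an adjusted p below 0.1 in edgeR's quasi-likelihood test over all 17877 probes tested. Of 12412 genes tested on their most counted probe, 3.75% were called lower and 5.59% higher in the same comparison. In females at 5 mg/kg, 11 of the 25 were lower and 2 were higher, against 2.00% of all genes called lower and 2.09% called higher. The median log2 fold change of the 25 was -1.004 in males and -0.78 in females, beside 0.11 and -0.0078 for all genes tested. The same control mice of a sex served for each of its doses. With the shallow library of mouse 355 kept in, 11 serpins were called in males and 8 in females, and the calls lost were those of Serpina4-ps1, Serpina6, Serpina7 and Serpinf1 in males and of Serpina7, Serpina10, Serpina11, Serpinc1 and Serping1 in females. The estimated number of molecules was higher at 5 mg/kg than in controls in males, as given above, and its part in the male changes was not tested, while counting in molecules called 16 serpins in males at 5 mg/kg.

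**Figure D1:**
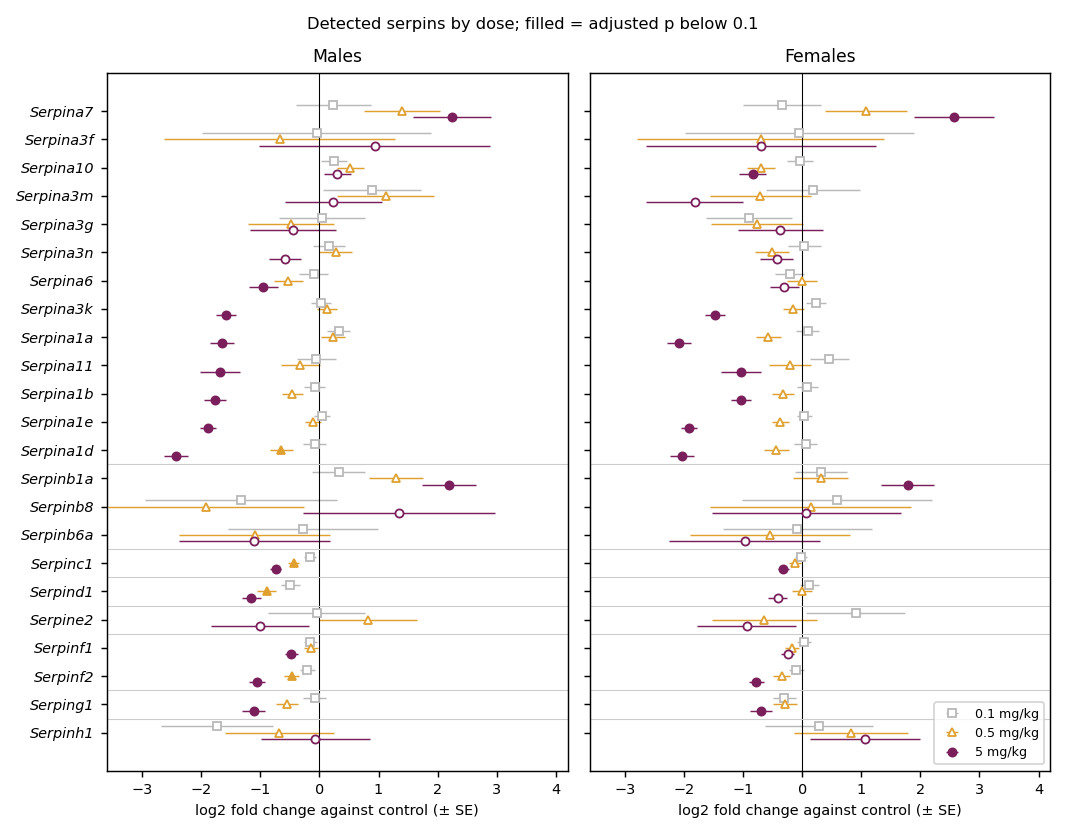
Log2 fold change with its SE on the x axis for 23 detected serpins (rows, divided by clade) of each sex, with squares for 0.1, triangles for 0.5 and circles for 5 mg/kg, with filled symbols at an adjusted p below 0.1. Serpina9 and Serpina4-ps1, whose fitted values rest on mice without reads, are left out, and at 5 mg/kg most clade A members sit to the left of 0 in both sexes while Serpina7 and Serpinb1a sit to the right.

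Serpins took a smaller share of all reads at 5 mg/kg. The probes of the 62 genes held 2.79% ± 0.228 (SD, n = 5) of the reads in control males, 2.73% ± 0.18 after 0.1 mg/kg, 2.42% ± 0.306 after 0.5 mg/kg and 1.17% ± 0.108 after 5 mg/kg. In females the shares were 2.79% ± 0.226, 2.88% ± 0.199, 2.34% ± 0.242 (n = 4) and 1.32% ± 0.116. In both sexes every mouse at 5 mg/kg lay below every control mouse, and the groups at 0.1 mg/kg overlapped with the controls. The Serpina1 genes made up 60.5% of the serpin reads in control males and 44.2% at 5 mg/kg, and 57.9% and 41.2% in females.

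**Figure D2:**
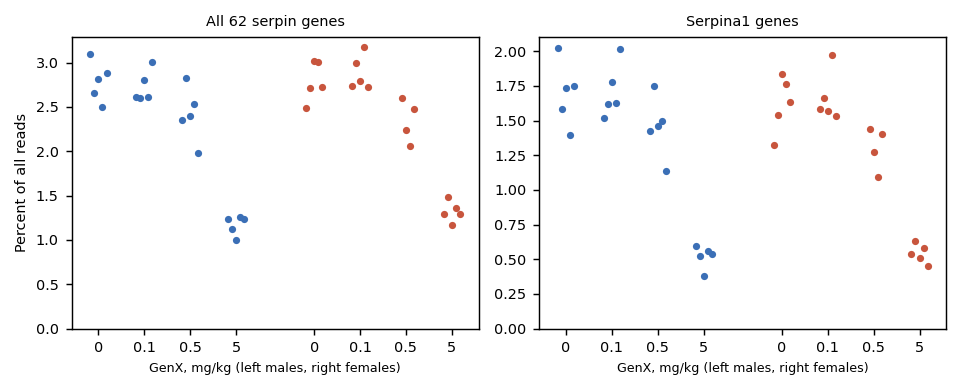
Percent of all reads on the probes of the 62 serpin genes (left) and of the Serpina1 genes (right) in each of the 39 mice (points), by dose in males and females. At 5 mg/kg all serpin shares lie between 0.999% and 1.49%, below the lowest control value of 2.48%.

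Serpina1e gave the most reads of the family. Its level in control males was 9341, 9256, 8016, 9411 and 12104 CPM, and in males at 5 mg/kg it was 2445, 1752, 3039, 2896 and 2924 CPM, so that no treated mouse came near a control (log2 fold change -1.88, SE 0.14, adjusted p = 4.04e-15). In females the levels were 8785, 10921, 10977, 8871 and 7097 CPM in controls and 2576, 2440.2, 2749.7, 2029 and 2547 CPM at 5 mg/kg (log2 fold change -1.92, SE 0.14, adjusted p = 2.64e-15). The fall was 3.69-fold in males and 3.78-fold in females, and the groups did not overlap in either sex.

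Serpina1b was 3325, 5373, 3909, 6129.6 and 6369 CPM in control males and 1523, 1325, 1302, 1316 and 1907 CPM at 5 mg/kg (log2 fold change -1.77, SE 0.18, adjusted p = 1.56e-10). Females had 3459.6, 4399, 4045, 4463 and 4109 CPM in controls and 2651, 1472, 2167, 1630.4 and 2072 CPM at 5 mg/kg (log2 fold change -1.03, SE 0.18, adjusted p = 5.86e-05). Treated mice were lower than all controls in both sexes, with a smaller log2 difference in females. The sex difference of the change was -0.73 ± 0.25 (SE) and did not pass the threshold (adjusted p = 0.13). Another probe for the same gene fell by similar amounts in the sexes, with log2 fold changes of -1.84 ± 0.16 in males and -1.92 ± 0.16 in females.

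Serpina1a was 459, 323, 273, 459.9 and 505 CPM in control males and 112, 84.5, 172, 117 and 158 CPM at 5 mg/kg (log2 fold change -1.65, SE 0.20, adjusted p = 2.41e-08). In females the levels were 493, 499, 552, 491 and 288 CPM and 120.3, 131, 106, 74.1 and 117 CPM (log2 fold change -2.08, SE 0.21, adjusted p = 1e-10). The groups were apart in both sexes, as they were for Serpina1d. Serpina1d was 259, 314, 271, 307 and 330.4 CPM in control males and 67.1, 35, 67.5, 45.7 and 60.2 CPM at 5 mg/kg (log2 fold change -2.43, SE 0.21, adjusted p = 7.78e-13), the lowest fitted value of the 4. Levels in females were 149, 231, 262, 177 and 151 CPM and 58.2, 71.3, 50.1, 31.2 and 26.8 CPM (log2 fold change -2.03, SE 0.20, adjusted p = 2.13e-10).

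The make-up of the Serpina1 counts was read as the share of each of the 4 genes in their sum. Serpina1e held 63.0% ± 4.51 (SD, n = 5) in control males and 60.8% ± 5.19 at 5 mg/kg, and 66.0% ± 3.62 and 53.7% ± 4.13 in females. Serpina1b held 29.4% ± 4.06 in control females and 42.9% ± 4.72 at 5 mg/kg, with no mouse in common, while in males it held 32.4% ± 4.83 and 34.9% ± 5.48. These shares use the most counted probe, and on the other Serpina1b probe the fall in females, -1.92, was the size of that of Serpina1e, -1.92. Between 28.2% and 51.4% of the windows of 50 bases in the GENCODE transcripts of these 4 genes also occur in another serpin gene, and the probe sequences were not used here. Reads of the 4 could therefore be shared, and the values of a single paralog are less certain than their common fall. The GENCODE gene models of Serpina1b (chr12:103728156-103830373) and Serpina1d (chr12:103763594-103773592) on mm10 also overlap on the same strand.

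**Figure D3:**
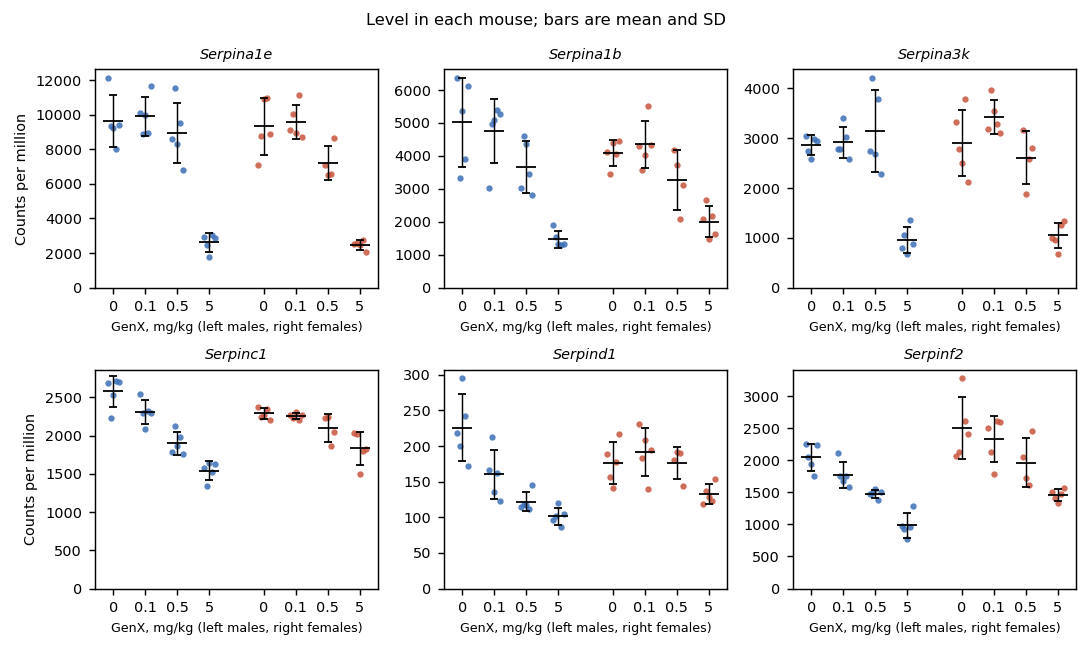
Level in CPM of 6 serpins that fell, in each mouse (points) with the group mean and SD (bars), by dose in males (blue) and females (red). In males at 0.5 mg/kg, Serpina1e, Serpina1b and Serpina3k overlap with controls while Serpinc1, Serpind1 and Serpinf2 lie below all controls, and at 5 mg/kg all 6 lie below them.

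Serpina3k, an abundant antichymotrypsin-like serpin of mouse liver, was 2752, 2578, 2992, 2936 and 3052 CPM in control males and 1062, 667, 1348, 884 and 798 CPM at 5 mg/kg (log2 fold change -1.59, SE 0.17, adjusted p = 8.14e-10). The female values were 2789.9, 2504, 3783, 2113 and 3321 CPM and 959.7, 683, 1260.0, 1334 and 994 CPM (log2 fold change -1.47, SE 0.17, adjusted p = 1.04e-08). Treated and control mice were apart in both sexes on this probe, and at 0.5 mg/kg they overlapped in males (2274 to 4206 CPM). Serpina3n, an acute phase relative, had means of 43.9 ± 17.8 CPM in male controls and 29.3 ± 4.96 CPM at 5 mg/kg (SD, n = 5) and did not pass the threshold (adjusted p = 0.204). Serpina3m, Serpina3g and Serpina3f, with group means of at most 49.4 CPM, 16.6 CPM and 5.06 CPM, were called at no dose. For Serpina3m the female change at 5 mg/kg, -1.82 ± 0.83 (adjusted p = 0.258), was called lower in 3 alternatives, with adjusted p of 0.057 without the filter on low counts, 0.00338 counted in molecules and 0.0243 with the groups compared alone. Serpina3k and Serpina3m share 257 windows of 50 bases and their gene models start at the same base, at chr12:104338486-104346144 and chr12:104338486-104394257.

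The inhibitors of clotting, fibrinolysis and complement fell less than the Serpina1 genes in males. Serpinc1 encodes antithrombin, the main plasma inhibitor of thrombin and factor Xa. It was 2236, 2536, 2719, 2704 and 2691 CPM in control males, 2121, 1861, 1985, 1760.0 and 1786 CPM at 0.5 mg/kg and 1339.8, 1639, 1522, 1626 and 1581 CPM at 5 mg/kg. All males at 0.5 mg/kg were below all control males (log2 fold change -0.44, SE 0.10, adjusted p = 0.00481), and those at 5 mg/kg were lower still (log2 fold change -0.74, SE 0.10, adjusted p = 8.11e-08). In females the values were 2249, 2268, 2342, 2210.0 and 2379 CPM in controls and 2016, 1502, 1792, 1822 and 2037 CPM at 5 mg/kg (log2 fold change -0.32, SE 0.10, adjusted p = 0.0529). The female groups did not overlap, but the call was lost in 5 of the 10 fits that left out 1 mouse, those without mice 153, 155, 452, 453 and 454, where the adjusted p reached 0.237. Both other probes of Serpinc1 gave log2 fold changes of -0.52 and -0.80 in males at 5 mg/kg and -0.29 and -0.36 in females, the latter with adjusted p of 0.258 and 0.2, above the threshold.

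Serpind1 encodes heparin cofactor II, which inhibits thrombin on dermatan sulfate and heparin. It was 199.96, 296, 242, 172 and 219 CPM in control males, 119, 117, 112, 145 and 115 CPM at 0.5 mg/kg and 102, 119, 86.6, 104 and 96 CPM at 5 mg/kg. Males were lower at 0.5 mg/kg (log2 fold change -0.89, SE 0.16, adjusted p = 0.000471) and at 5 mg/kg (log2 fold change -1.15, SE 0.16, adjusted p = 6.37e-07), with no overlap with controls. Female mice had 157, 141, 178, 217 and 188 CPM in controls and 138, 128, 123, 154 and 118 CPM at 5 mg/kg, and the groups overlapped slightly (log2 fold change -0.41, SE 0.16, adjusted p = 0.227). The sex difference of the change was -0.74 ± 0.23 at 5 mg/kg (adjusted p = 0.126) and -0.89 ± 0.23 at 0.5 mg/kg (adjusted p = 0.114), which missed the threshold. At 0.1 mg/kg male levels were 213, 136, 163, 123 and 166 CPM, and the value of -0.49 ± 0.16 was not called (adjusted p = 0.35).

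Serpinf2 encodes alpha-2-antiplasmin, the fast inhibitor of plasmin. In males it was 2056, 1942, 1756, 2235 and 2247 CPM in controls, 1483, 1553, 1382, 1502 and 1479 CPM at 0.5 mg/kg and 932, 773, 954, 1294 and 968 CPM at 5 mg/kg. The 3 groups did not overlap, and the change was called at 0.5 mg/kg (log2 fold change -0.47, SE 0.13, adjusted p = 0.0448) and at 5 mg/kg (log2 fold change -1.06, SE 0.13, adjusted p = 2.71e-08). In females it was 2131, 3278, 2613, 2403 and 2074 CPM in controls and 1415, 1334, 1474, 1575 and 1501 CPM at 5 mg/kg (log2 fold change -0.78, SE 0.13, adjusted p = 3.9e-05). Serpinf1, its neighbor on chromosome 11, encodes pigment epithelium-derived factor, which is not known to inhibit proteases. It was 864, 745, 815, 728 and 744 CPM in control males and 491, 576, 509, 606 and 625 CPM at 5 mg/kg (log2 fold change -0.47, SE 0.11, adjusted p = 0.00354). Of its other probes in males, 1 was not called (-0.28 ± 0.15, adjusted p = 0.249) and the other was (-0.85 ± 0.15, adjusted p = 5.51e-05). Female means were 778 ± 59.9 CPM without GenX and 655 ± 109 CPM at 5 mg/kg (SD, n = 5), with an adjusted p of 0.258.

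Serping1 encodes C1 inhibitor, which controls C1r, C1s and plasma kallikrein. It was 135, 161, 195, 227 and 220.4 CPM in control males and 92.4, 46.9, 109, 109 and 76.5 CPM at 5 mg/kg (log2 fold change -1.11, SE 0.19, adjusted p = 3.56e-05). Females had 117, 179, 148, 161 and 148 CPM and 93.9, 89.2, 99.4, 97.7 and 83.5 CPM (log2 fold change -0.70, SE 0.19, adjusted p = 0.028). Both sexes showed no overlap, and another probe of the gene gave -0.97 ± 0.18 in males and -0.81 ± 0.18 in females. The female call was lost without mouse 152 (adjusted p = 0.103).

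The hormone carriers of clade A moved in opposite directions in males at 5 mg/kg. Serpina7 encodes thyroxine-binding globulin and lies on the X chromosome (chrX:139079257-139085236). In males it was 7.12, 34.7, 17.9, 24 and 48.9 CPM in controls and 112, 170.3, 91.8, 133 and 119 CPM at 5 mg/kg (log2 fold change 2.24, SE 0.66, adjusted p = 0.0243). Levels in females were 1.96, 9.35, 6.59, 6.04 and 0 CPM in controls and 26.7, 32.9, 16.5, 30.3 and 35.2 CPM at 5 mg/kg (log2 fold change 2.57, SE 0.68, adjusted p = 0.0204). Every treated mouse lay above every control, and the fold was 4.72 for males and 5.93 for females. At 0.5 mg/kg all 5 males, at 104, 52.4, 54.4, 76.9 and 61.3 CPM, were also above all control males, but the change of 1.40 ± 0.64 was not called (adjusted p = 0.259). It was called in 3 alternatives, with adjusted p of 0.058 without the filter on low counts, 0.00662 counted in molecules and 0.0625 with the groups compared alone.

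Serpina6 encodes corticosteroid-binding globulin. It was 191, 202, 181, 195 and 123 CPM in control males and 84.7, 116, 74.3, 87.9 and 99.1 CPM at 5 mg/kg, without overlap (log2 fold change -0.95, SE 0.25, adjusted p = 0.0082). Female levels spread widely, at 188, 201, 214, 444 and 351 CPM in controls and 306, 131, 339, 149 and 208 CPM at 5 mg/kg (log2 fold change -0.30, SE 0.24, adjusted p = 0.783). The sex difference of the change, -0.65 ± 0.34, was not called (adjusted p = 0.434).

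Of the 3 detected clade B members, Serpinb1a, an inhibitor of neutrophil elastase and cathepsin G inside cells, was called. It was 13.4, 4, 10.6, 9.76 and 10.2 CPM in control males and 40.8, 47.2, 62.8, 47.6 and 21.5 CPM at 5 mg/kg (log2 fold change 2.19, SE 0.46, adjusted p = 0.000704). The female values were 30.5, 13.8, 52.6, 63.2 and 49 CPM in controls and 380.5, 65.3, 76.3, 104 and 96 CPM at 5 mg/kg (log2 fold change 1.79, SE 0.45, adjusted p = 0.013). The groups did not overlap in either sex, but mouse 451 alone held 380.5 CPM. Without it the female log2 fold change was 1.03 and was no longer called (adjusted p = 0.283). The summed level of 4 neutrophil markers was 1.66 to 16.02 CPM in control males and 3.28 to 9.46 CPM at 5 mg/kg, and 15.3 to 57.9 and 7.02 to 21.1 CPM in females, with 2 or 3 of the 4 at 0 in each of these groups. Serpinb6a and Serpinb8 had group means of at most 7.04 and 9.8 CPM and were not called.

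**Figure D4:**
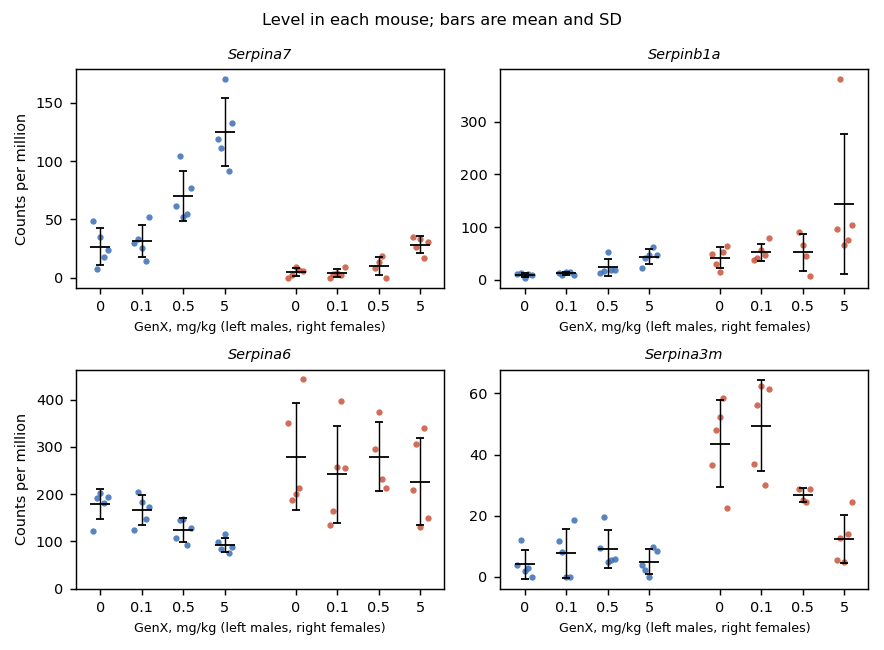
Level in CPM of Serpina7, Serpinb1a, Serpina6 and Serpina3m in each mouse (points) with the group mean and SD (bars), by dose in males (blue) and females (red). Serpina7 at 5 mg/kg reached 91.8 to 170 CPM in males and 16.5 to 35.2 CPM in females, and 1 female stands far above the others for Serpinb1a.

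Serpina11, a clade A member on chromosome 12, was 23.1, 41, 35.3, 37.2 and 71.9 CPM in control males and 3.78, 16.4, 22.9, 10.5 and 11.6 CPM at 5 mg/kg (log2 fold change -1.68, SE 0.34, adjusted p = 0.00043). Female mice had 24.6, 40.8, 44.2, 39.9 and 26.5 CPM and 16.8, 8.84, 23, 16.4 and 20.9 CPM (log2 fold change -1.04, SE 0.34, adjusted p = 0.0947), a call lost in 7 of the 10 fits that left out 1 mouse, those without mice 152, 153, 154, 451, 452, 454 and 455, with an adjusted p of up to 0.279. Its other probe was not called in males (-1.20 ± 0.45, adjusted p = 0.114) or females (-0.65 ± 0.44, adjusted p = 0.607), and the groups overlapped. Serpina4-ps1, annotated as an unprocessed pseudogene, was 34.9, 28.8, 0, 194 and 67.1 CPM in control males and 0, 6.06, 0, 0 and 1.06 CPM at 5 mg/kg. Its fitted log2 fold change of -5.46 ± 1.65 was called (adjusted p = 0.0304), but the groups overlapped because mouse 103 was at 0, and the call was lost without mouse 104 (adjusted p = 0.104). Serpina9, known from germinal center B cells, was 14.4, 0, 0, 1.19 and 15 CPM in control females and had 0 reads in all 5 females at 5 mg/kg. It was called lower (adjusted p = 0.0173), yet 2 of the 5 control females also had 0 reads, so no fold is given. Males at 5 mg/kg ranged from 0 to 9.84 CPM against 4.92 to 13 CPM in controls (adjusted p = 0.838).

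Serpine2, a protease nexin of clade E, had group means from 3.45 to 25.3 CPM, and Serpinh1, a collagen chaperone of clade H, had group means from 3.93 to 13.2 CPM. Neither was called at any dose. The 6 stellate cell and fibroblast markers, cells in which Serpinh1 is known to be high, summed to 83.9 to 123 CPM in control males and 178 to 215 CPM in males at 5 mg/kg, and to 106 to 142 and 82.0 to 146 CPM in females. Most of the difference in males was in Col1a1 (means of 16.1 and 55.5 CPM) and Col3a1 (8.41 and 50.7 CPM). Lrat (4.18 and 14.6 CPM) and Dcn (44.2 and 54.1 CPM) were also higher, while Reln (13.2 and 8.82 CPM) and Colec11 (12.1 and 10.9 CPM) were not. Serpinh1 in the same males was 13.2 ± 7.03 CPM and 12.6 ± 5.49 CPM (SD, n = 5).

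At 0.5 mg/kg, 4 of the 25 serpins were called lower in males on their most counted probes, namely Serpina1d, Serpinc1, Serpind1 and Serpinf2, and none was called higher. Between them, the alternatives also called Serpina1b and Serping1 lower and Serpina7 and Serpinb1a higher. Over all genes tested, 0.733% were called lower and 1.88% higher. Another probe was called lower for Serpina10 (-1.48 ± 0.29, adjusted p = 0.00133), Serpinc1 (-0.50 ± 0.13, adjusted p = 0.0351) and Serpinf1 (-0.48 ± 0.15, adjusted p = 0.0989). The other Serpina3k probe was called higher (1.82 ± 0.32, adjusted p = 0.000248). Serpina1d was 224, 184, 201, 174 and 163 CPM at this dose (log2 fold change -0.65, SE 0.20, adjusted p = 0.0901), below all control males, and the call was lost in 8 of the 10 fits that left out 1 mouse, all but those without mice 101 and 301. The Serpinf2 call was lost without mouse 104, 105 or 303, with an adjusted p of up to 0.124. The library of mouse 355 also decided these calls: with it in the fit, none of the 4 was called, and their adjusted p ranged from 0.148 for Serpind1 to 0.394 for Serpina1d, with log2 fold changes of -0.89 and -0.65 as before. In females at 0.5 mg/kg no serpin was called, and 0.201% of all genes were called. At an unadjusted p below 0.05 stood 5 of the 25, beside 9.83% of all genes. At 0.1 mg/kg no serpin was called in males or females, where 0.0403% and 0% of all genes were called. At an unadjusted p below 0.05 stood 1 serpin in males and 0 in females, beside 12.9% and 9.60% of all genes. DESeq2 called Serpind1 in males at 0.1 mg/kg and no serpin in females at either dose.

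The step from 0.5 to 5 mg/kg separated these serpins. In males, 8 of the 25 were lower at 5 than at 0.5 mg/kg (1.84% of all genes), and in females 6 were (0.749% of all genes). Serpina1e differed by -1.78 ± 0.14 in males and -1.55 ± 0.14 in females, and Serpina3k by -1.72 ± 0.17 and -1.32 ± 0.18. In females the calls of Serpina1b and Serpina9 were lost in 4 and 7 of the 9 fits that left out 1 mouse, those without mice 351, 352, 452 and 454 for Serpina1b and those without mice 352, 354 and 451 to 455 for Serpina9. On the other Serpina1b probe the female step was larger (-1.66 ± 0.16, adjusted p = 5.02e-10), and the groups did not overlap. Serpind1, in contrast, was 122 ± 13.4 CPM in males at 0.5 mg/kg and 102 ± 12 CPM at 5 mg/kg (SD, n = 5), a step of -0.26 ± 0.16 that was not called (adjusted p = 0.541). Serpinc1 showed a step of -0.30 ± 0.10 (adjusted p = 0.0956), a call that held in 1 of the 10 fits that left out 1 mouse, the fit without mouse 304.

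Between control males and control females, 3 of the 25 serpins were lower in males and 2 were higher, where 2.37% and 1.52% of all genes were. Serpina3m was 12.2, 1.87, 2.73, 0 and 3.88 CPM in control males and 48, 52.3, 58.5, 22.7 and 36.6 CPM in control females (log2 fold change -3.39, SE 0.88, adjusted p = 0.0212), and its other probe had the same direction at -2.18 ± 0.66. Serpinb1a was also lower in males (log2 fold change -2.12, SE 0.46, adjusted p = 0.00308), without overlap. Serpina7 was higher in males (log2 fold change 2.47, SE 0.68, adjusted p = 0.0312), and 1 control male overlapped with the females. Serpina1d was higher in males by 0.61 ± 0.20 with overlapping groups (adjusted p = 0.0954). Without mouse 105 Serpina7 was not called (adjusted p = 0.105), and Serpina1d was lost in 7 of 10 fits that left out 1 mouse, those without mice 102, 103, 104, 105, 151, 154 and 155.

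Serpina10 encodes the protein Z-dependent protease inhibitor of factor Xa, and its 2 probes gave opposite pictures. On the most counted probe it was 89.6, 87.7, 54.8, 60.6 and 105 CPM in control males, 84.5, 67.4, 98.5, 115 and 126 CPM in males at 5 mg/kg, 131, 141, 177, 118 and 126 CPM in control females and 70.7, 92.9, 82.9, 50.7 and 89.9 CPM in females at 5 mg/kg. Females at 5 mg/kg were all below controls (log2 fold change -0.84, SE 0.23, adjusted p = 0.0256), a call lost without mouse 153 or 454, males were not called (log2 fold change 0.30, SE 0.23, adjusted p = 0.571), and control males were lower than control females (log2 fold change -0.80, SE 0.23, adjusted p = 0.0415), a call lost without mouse 103, 104 or 153. The sex difference of the change at 5 mg/kg was called (log2 fold change 1.142, SE 0.32, adjusted p = 0.0882), the 1 such call among the 25 where 1.19% of all genes were called. On the other probe the values were 49.4, 54.9, 57.5, 50.2 and 40.3 CPM in control males, 20.5, 22.7, 17.1, 17.9 and 11.4 CPM in males at 5 mg/kg, 20.7, 31.9, 17.1, 25.7 and 36.2 CPM in control females and 12.3, 34, 28.2, 25.5 and 28.9 CPM in females at 5 mg/kg. There males fell (log2 fold change -1.49, SE 0.29, adjusted p = 0.000218), females were not called (log2 fold change -0.03, SE 0.28, adjusted p = 1), control males were higher than control females (log2 fold change 0.94, SE 0.29, adjusted p = 0.068), and the sex difference of the change was called with the opposite sign (log2 fold change -1.46, SE 0.40, adjusted p = 0.0821). With the probes summed the sex difference was 0.50 and was not called (adjusted p = 0.394), and on the most counted probe the call was also lost in 12 of the 20 fits that left out 1 mouse, those without mice 102, 103, 104, 151, 152, 153, 403, 404, 405, 451, 453 and 454. On their most counted probes, no sex difference at 0.5 mg/kg was called among the 25 serpins, where 0.322% of all genes were called. Of the 25, 4 had an unadjusted p below 0.05, beside 10.7% of all genes.

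**Figure D5:**
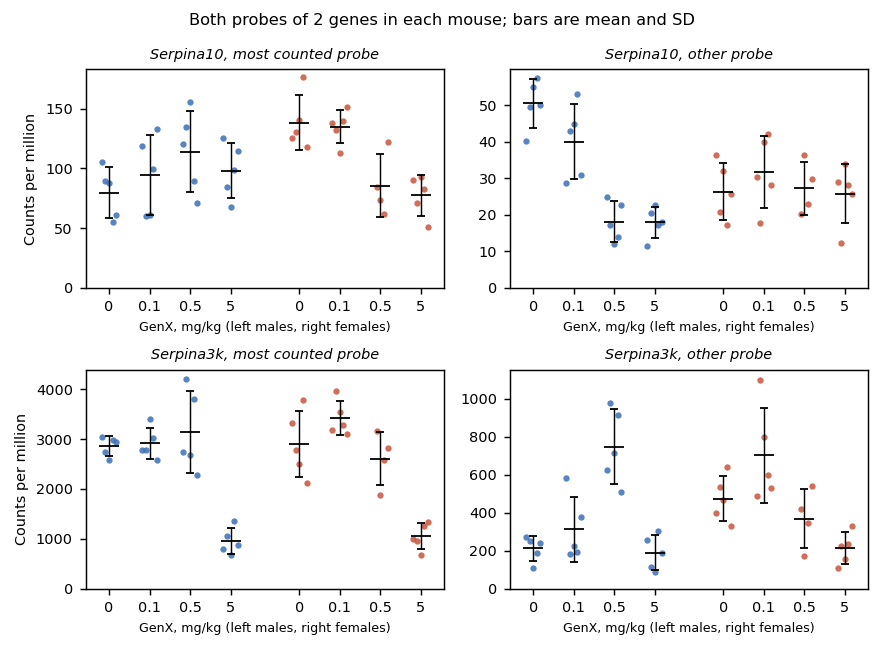
Level in CPM on the most counted probe (left) and the other probe (right) of Serpina10 and Serpina3k in each mouse (points) with the group mean and SD (bars), by dose in males (blue) and females (red). In males the other Serpina10 probe fell from 40.3 to 57.5 CPM in controls to 11.4 to 22.7 CPM at 5 mg/kg, while the most counted probe overlapped between these groups. The other Serpina3k probe had means of 748 CPM in males at 0.5 mg/kg and 702 CPM in females at 0.1 mg/kg. Its highest single value, 1100 CPM, was in a female at 0.1 mg/kg.

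For 10 detected genes with more than 1 detected probe, the log2 ratio of the most counted probe to each other probe was compared between 5 mg/kg and control mice, in 24 comparisons with a two-sided exact permutation test of 5 against 5 mice. The smallest p that this design allows is 0.00794, and 3 comparisons reached it (Benjamini-Hochberg adjusted p = 0.0635). The ratio rose by 1.82 for Serpina10 in males, rose by 0.86 for Serpina1b in females and changed by -1.39 for Serpina3k in males. The other Serpina3k probe was 252, 107, 186, 242 and 273 CPM in control males, 979, 713, 913, 508 and 627 CPM at 0.5 mg/kg and 112, 87.6, 301, 186 and 259 CPM at 5 mg/kg. It rose at 0.5 mg/kg (log2 fold change 1.82, SE 0.32, adjusted p = 0.000248) and was not called at 5 mg/kg (adjusted p = 1), unlike the most counted probe. In females it was called lower at 5 mg/kg (-1.16 ± 0.31, adjusted p = 0.0233), as the most counted probe was. On the other Serpina3k probe the sex difference of the change at 0.5 mg/kg was called (2.18 ± 0.46, adjusted p = 0.017). There every control male was also below every control female (-1.16 ± 0.31, adjusted p = 0.0264). Another Serpina3n probe was called lower in males at 5 mg/kg (-1.73 ± 0.39, adjusted p = 0.0015).

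Genes outside the family were described from lists drawn up by function. The list of target proteases was not limited to those of plasma and included Ctsl, Ctsb, Ctss and Furin. Of 20 tested target proteases, 10 were lower and 1 higher in males at 5 mg/kg, beside 3.75% and 5.59% of all genes, with a median log2 fold change of -0.60 (0.11 over all genes). In females 6 were lower and 0 higher, beside 2.00% and 2.09% of all genes, with a median of -0.40 (-0.0078 over all genes). Plg, the plasminogen held in check by alpha-2-antiplasmin, changed by -0.86 ± 0.10 in males and -0.63 ± 0.10 in females, and F11, clotting factor XI, by -3.12 ± 0.40 and -1.23 ± 0.37. C1s1, a target of C1 inhibitor, changed by -1.65 ± 0.24 and -1.62 ± 0.24. Plau, the urokinase, was the 1 called higher in males, from 0 in all control males to a mean of 6.51 CPM at 5 mg/kg.

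Other liver protease inhibitors were also lower more often than higher. At 5 mg/kg, 10 of 20 tested were lower in males, 8 were lower in females and none was higher, with medians of -0.56 and -0.61. The shares of all genes given for the proteases also stand beside this list and the following ones at 5 mg/kg. Itih4, a heavy chain of the inter-alpha-inhibitor family, changed by -2.01 ± 0.19 in males and -1.18 ± 0.18 in females, and Ahsg, which encodes fetuin-A, by -1.31 ± 0.15 and -0.96 ± 0.15. Of 18 acute phase genes, 7 were lower in each sex and none was higher, with medians of -0.66 and -0.75, and Fgg, a fibrinogen chain, changed by -1.23 ± 0.13 and -0.81 ± 0.13. Itih3 and Itih4 belong to both of these lists. Of 18 sex-biased liver genes, 3 were higher and 5 lower in males and 1 was higher and 5 lower in females at 5 mg/kg. At 0.5 mg/kg in males, 5 of the target proteases, 4 of the other inhibitors and 2 of the acute phase genes were lower and none of the 3 lists held a gene called higher, beside 0.733% of all genes lower and 1.88% higher, while in females at that dose 0, 0 and 1 were lower and 0.201% of all genes were called in either direction. At 0.1 mg/kg no gene of the 4 lists was called in either sex.

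Between control males and control females, 3 of the target proteases, 4 of the other inhibitors and 6 of the acute phase genes were lower in males, 1 other inhibitor, Pzp, was higher, and of the sex-biased genes 6 were higher and 8 lower, beside 2.37% of all genes lower and 1.52% higher. Serpina1e averaged 9626 ± 1499.6 CPM in male and 9330.2 ± 1638 CPM in female controls (SD, n = 5, adjusted p = 1).

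The 37 members that were not detected included Serpina12, Serpina16, Serpina1f, Serpina3a, Serpina3b, Serpina3c, Serpina3i, Serpina3j, Serpina5, Serpinb10, Serpinb11, Serpinb12, Serpinb13, Serpinb1b, Serpinb1c, Serpinb2, Serpinb3a, Serpinb3b, Serpinb3c, Serpinb3d, Serpinb5, Serpinb6b, Serpinb6c, Serpinb6d, Serpinb6e, Serpinb7, Serpinb9, Serpinb9b, Serpinb9c, Serpinb9d, Serpinb9e, Serpinb9f, Serpinb9g, Serpine3, Serpini1 and Serpini2. Of the 37, 15 were without a single read in all 39 libraries. Serpina3f lay just inside the limit, with at least 100 reads in 4 libraries, while Serpina3a and Serpinb6b, outside it, reached 100 reads in 0 libraries. Of the members that were not detected, 4 passed edgeR's filter, and none of them was called in any comparison. Of the 25 detected serpins, 14 lie on chromosome 12 between bases 103614786 and 104414329 of mm10.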

How the data were processed

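The authors deposited raw read counts for 30146 TempO-Seq probes, not normalized, in 40 mouse livers, each library from 1 mouse. The submitters' processing notes name bcl2fastq 2.17.1.14, Bowtie and mm10, without giving their roles. Mouse 355, more than 2 SD below the mean total, was left out. Here, the 17877 probes that passed edgeR's filterByExpr were normalized by TMM and fitted in 1 quasi-likelihood model of 8 groups (edgeR 4.0.16, R 4.3.3), and p-values of each comparison were adjusted by Benjamini-Hochberg over all probes tested, with a threshold of 0.1. The p-values set each difference between groups against a spread between mice estimated over all 8 groups together. That spread includes the sampling of few molecules. CPM values are scaled by TMM, and an error after a log2 fold change is its SE. A sex difference is the male minus the female change.

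Serpins and the lists of other genes were chosen with earlier results of these data known. Values per mouse are given for members called at any dose or in the sex difference of the change and for the 5 most abundant detected members, and by group for the rest. 1 member that was not detected is not reported here. Estimated reads per molecule came from the spacing of low counts. Gene models came from GENCODE on mm10 and promoters from RefSeq on GRCm38.p6. No promoter was used for Serpina10, Serpina3k, Serpina3m, Serpina4-ps1, Serpina6, Serpina9, Serpinb1a and Serping1. In simulated counts for males at 5 mg/kg over 17877 probes, edgeR recovered 36% of 2-fold and 62% of 4-fold changes with 6.67% false calls (4.85% over 5 CPM), and DESeq2 1.42.0 recovered 48% and 74% with 81.9% false calls (34.8% over 5 CPM). The simulated counts followed a negative binomial distribution without the steps of reads per molecule. These rates may therefore differ in the real counts, above all for probes with few reads. The alternatives were DESeq2, its size factors, no filter on low counts, all 40 libraries, the groups compared alone, probes summed by gene, counts per captured molecule and leaving out each mouse.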

Additional observations from a re-analysis of the deposited data

Results flagged for a closer look

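In 16 of 200 groups of 4 or 5 mice tested, 1 mouse stood apart from the others of its group, by the gap to its nearest neighbor as a share of the group's range on the log2 scale. Chance alone gives a share of the groups near the test's 5% level. The mouse stood above the others for Serpina11 at 0.5 mg/kg in females (mouse 351, share 0.861), Serpina3g at 5 mg/kg in females (452, 0.807), Serpinb1a at 5 mg/kg in females (451, 0.735) and Serpind1 at 0.5 mg/kg in males (304, 0.76). It stood below them in control females for Serpina1a (155, 0.821), in control males for Serpina4-ps1 (103, 0.734), Serpina6 (105, 0.786), Serpinb1a (102, 0.734) and Serpine2 (102, 0.713), and in males at 5 mg/kg for Serpinb8 (402, 0.975). At 0.1 mg/kg the low mice were for Serpina1b (205, 0.857) and Serpina9 (201, 0.767) in males and for Serpinb6a (252, 0.715) and Serpinh1 (254, 0.763) in females. At 0.5 mg/kg in females they were for Serpina3f (352, 0.88) and Serpina7 (354, 0.839). The Serpinb1a value of mouse 451 was 380.5 CPM beside 65.3 to 104 CPM in the other 4 females. For Serpinb8, mouse 402 was at 7.07 CPM beside 10.4 to 10.5 CPM, a gap of few captured molecules. The low mice for Serpina3f, Serpina4-ps1, Serpina7, Serpina9, Serpinb6a and Serpinh1 were at 0 CPM, where the share depends on how 0 is placed on the log2 scale.

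The change at 5 mg/kg on the most counted Serpina10 probe differed between the sexes by 1.142 on the log2 scale, and the other probe of the gene differed in the opposite direction.

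The library of mouse 355, used only in the alternative with all 40 libraries, held 6 serpins with at least 100 reads above every control female. Here the values of mouse 355 and of the controls are in CPM of each library's own total, without normalization. Serpina3n was 575.5 CPM beside 31.6 to 88.0 CPM in controls, and Serping1 was 223 CPM beside 121 to 178 CPM. Serpina11 was 51.8 CPM, Serpina3f 33.1 CPM, Serpina3g 61.5 CPM and Serpinb6a 40.5 CPM. Serpine2, with 79 reads, was also above them at 11.8 CPM. Below every control female were 13 of the 25 detected serpins, among them Serpinf1 (46.2 CPM beside 700.3 to 899 CPM), Serpinc1 (779.9 beside 2246 to 2333 CPM), Serpina6 (10.3 beside 194 to 452 CPM) and Serpina1d (11.2 beside 148 to 253 CPM). This library held an estimated 92099 molecules, and the part of its depth in these values was not tested.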

How the results depend on the processing

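No paired analysis was possible because each mouse has its own number. No serpin value that was called changed direction under any alternative run. With all 40 libraries, 8 serpins were called in females at 5 mg/kg, 0 in males at 0.5 mg/kg, 2 between control males and females and 0 for the sex difference at 5 mg/kg. Without the filter on low counts the counts were 7 (males, adding Serpina1b lower and Serpina7 and Serpinb1a higher) and 1 (females) at 0.5 mg/kg, 3 and 1 for the sex difference at 5 and 0.5 mg/kg, and 10 for females at 5 against 0.5 mg/kg. Counted in molecules they were 7 in males at 0.5 mg/kg (adding Serpina1b and Serping1 lower and Serpina7 higher), 4 and 2 for the sex differences, and 13 for males at 5 against 0.5 mg/kg. Serping1 was also added as lower by DESeq2, by probes summed by gene and by the groups compared alone, which added Serpina7 as higher. DESeq2 called 1 in males at 0.1 mg/kg and 4 and 3 for the sex differences, its size factors in edgeR gave 2 and 1, and probes summed by gene gave 1 for the sex difference at 0.5 mg/kg. Leaving out 1 mouse gave 14 to 15 male and 10 to 13 female calls at 5 mg/kg, 2 to 5 in males at 0.5 mg/kg (2 without mouse 104, 105 or 303), 0 in the other low dose groups, 3 to 5 between control sexes (3 without 103, 104 or 105), 0 to 2 for each sex difference, 7 to 8 for males and 4 to 7 for females at 5 against 0.5 mg/kg. The causes were not tested. The scalings moved the median of all probes by at most -0.09 on the log2 scale. Levels of a few CPM rest on single molecules, so small changes there were not detectable.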
